A study of Mus musculus with 10 samples.

Results

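The genes of bone morphogenetic protein (BMP) signalling and the Id genes that it controls were followed in mouse embryonic stem (ES) cells whose acetyltransferase Kat2a was inhibited. The 10 genes were taken by name: the ligand Bmp4, the receptors Bmpr1a and Bmpr2, the signal transducers Smad1 and Smad5, the inhibitory Smad6, and the targets Id1, Id2, Id3 and Id4. All 10 were among the 30677 genes of the count table and all 10 passed the filter on low counts. The cells were of the TNGA line, a single ES cell line with a GFP reporter at 1 Nanog allele, grown in serum with leukemia inhibitory factor (LIF). For 48 hours, 3 cultures received MB-3, a small-molecule Kat2a inhibitor, at 100 μM, and 3 received the vehicle DMSO alone, at a final 0.1% volume in every culture. PolyA RNA from each culture was sequenced, the replicates carrying the letters A, B or C, to between 46863700 and 51137896 counts per DMSO library and between 42270312 and 49334434 per MB-3 library. No label says whether cultures of a group were started separately, so p-values measure the spread between these libraries, which may be in part technical. MB-3 acts on the protein, so the treatment has no target transcript in these data whose loss would check the labels.

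BMP ligands bind a pair of receptor kinases, a type I chain such as Bmpr1a and a type II chain such as Bmpr2, which phosphorylate Smad1 and Smad5. These enter the nucleus with Smad4 and switch on the Id genes, while Smad6, itself induced by the signal, holds the pathway back. Id proteins carry a helix-loop-helix but no DNA-binding region, and they hold E proteins such as those of Tcf3, Tcf4 and Tcf12 away from DNA. In ES cells in serum and LIF, BMP activity in the serum and the Id genes it maintains are known for blocking neural differentiation beside the action of LIF through Stat3.

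The cells carried the markers of ES cells, with Dppa5a the most abundant of 8 with 1449 ± 141 CPM under DMSO and 1322 ± 80.4 CPM under MB-3 (CPM, counts scaled to a common library size after normalisation; SD, n = 3). Markers of other cell types were also detected, and their summed levels differed between libraries. For 6 genes of the primitive streak, T the most abundant, the summed level was 27.1, 16.6 and 51.01 CPM in DMSO libraries A, B and C, and 10.6, 8.10 and 14.5 CPM in the corresponding MB-3 libraries. For 4 genes of simple epithelium, Krt8, Krt18 and Krt19 with Epcam the most abundant, the sums were 274, 208 and 406 CPM in DMSO and 187, 170 and 248 CPM in MB-3. Letter C was thus highest and letter B lowest in both treatments for these lists. No gene of any marker list was at 0 in all libraries. ES cells also express Epcam, whose log2 fold change in MB-3 against DMSO was 0.0087, the highest of the 4 epithelial genes. The 3 keratin genes were lower, down to -1.58. The sums of the markers of primitive endoderm (most abundant gene Dab2) were 10.2 ± 1.98 and 8.85 ± 0.912 CPM in DMSO and MB-3, of fibroblasts (Thy1) 9.47 ± 1.41 and 6.77 ± 0.0887, and of trophectoderm (Tfap2c, which ES cells also express) 67.7 ± 2.46 and 74.4 ± 1.79 (SD, n = 3). The trophectoderm sum was higher in MB-3, but of the 5 trophectoderm genes tested 4 were lower and 1 higher by sign. Their median log2 fold change was -0.24. Those of neuroectoderm (Nes) lay between 63.4 and 85.9 CPM in DMSO and between 60.0 and 65.1 CPM in MB-3. In bulk RNA, fewer cells of a type and less RNA per cell cannot be told apart.

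Per transcript length, Id1 was the most abundant of the 10 genes. Its level was 24.4 ± 2.64 RPKM in DMSO and 24.5 ± 1.75 RPKM in MB-3 (CPM per kilobase of annotated exon; SD, n = 3). Bmpr1a and Id2 followed in DMSO, at 10.4 ± 0.663 and 10.0 ± 1.06 RPKM, and did not differ beyond their spread. Id3, Bmp4 and Smad5 lay close together at 5.65 ± 0.592, 5.28 ± 0.524 and 4.67 ± 0.276 RPKM. Smad1 was at 1.94 ± 0.0756 RPKM, and Smad6, Id4 and Bmpr2 stood at the foot with overlapping levels of 1.04 ± 0.212, 0.996 ± 0.0558 and 0.954 ± 0.0189 RPKM. Under MB-3 the order was the same except that Bmpr2, at 1.05 ± 0.0213 RPKM, lay above Id4, at 0.859 ± 0.113 RPKM. With the longest transcript in place of all annotated exons as the length, Id2 ranked above Bmpr1a, and Bmpr2 above Smad6 and Id4. Summed over Id1 to Id4, the level was 41.1 ± 4.07 RPKM in DMSO and 39.1 ± 2.34 RPKM in MB-3, against 28.8 ± 0.600 and 29.9 ± 1.26 RPKM for the E protein genes Tcf3, Tcf4 and Tcf12 together.

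**Figure D1:**
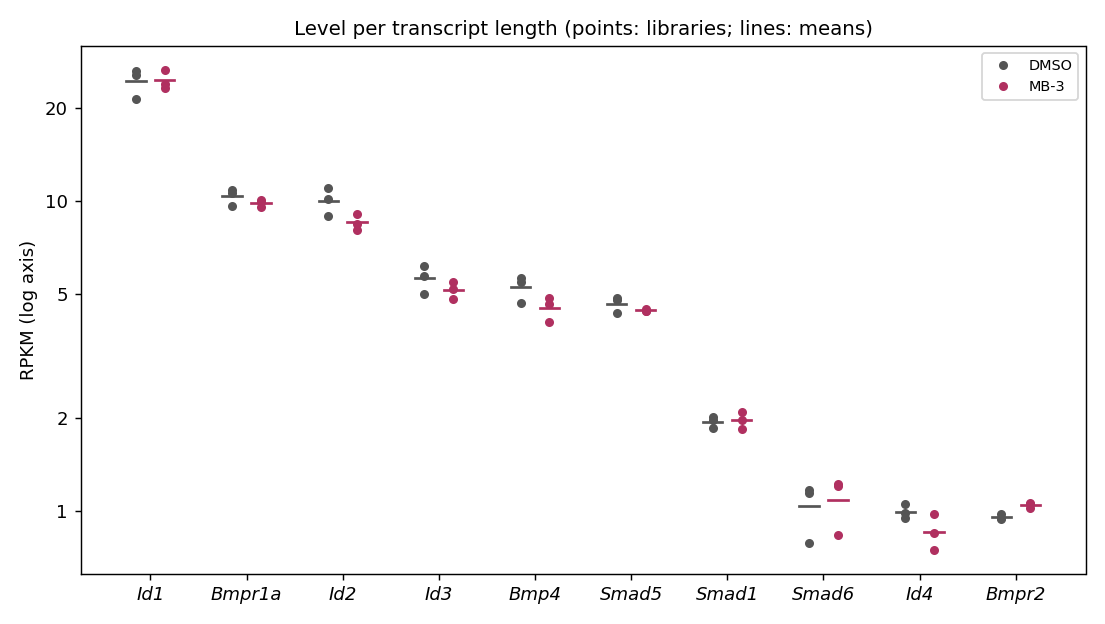
Level of each of the 10 genes per transcript length in RPKM on a log axis, with a point for each of 3 DMSO and 3 MB-3 libraries and a line at each mean. Id1 stood highest at 24.4 RPKM in DMSO, and Smad6, Id4 and Bmpr2 lay near 1 RPKM.

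None of the 10 genes was differentially expressed in MB-3 against DMSO when treatment was the only term of the test. Over all 20027 genes tested, 0.205% passed the threshold (0.05 for the p-value of the quasi-likelihood test in edgeR after Benjamini-Hochberg adjustment), so 0 of 10 says little about the list. DESeq2 with treatment as the only term also called 0 of the 10 genes, beside 1.04% of all genes it tested, and 2 of them, Id2 and Bmp4, had an unadjusted p-value under 0.05 in edgeR, where 10.9% of all genes did. Without a filter on low counts 0.632% of all genes were called, without DMSO replicate B 2.55%, and in neither case any of the 10. The means of 6 of the 10 genes were lower in MB-3 and those of 4 higher. Their median log2 fold change was -0.074, and that of all genes tested -0.0011. The 95% intervals left room for no 2-fold change in any of the 10 genes, the widest being that of Smad6, from -0.33 to 0.48 on the log2 scale. Same-letter libraries deviated together from their group means, so each result was also tested with the replicate letter as a block. In that test 1 of the 10 genes, Id2, was lower in MB-3, where 3.9% of all genes tested were called lower and 7.12% were called in either direction. With the block the unadjusted p-value was under 0.05 for 3 of the 10 genes, Id2, Bmp4 and Bmpr2, and for 20.1% of all genes. DESeq2 with the same block called 0 of the 10 and 3.36% of all genes. Within letters, the MB-3 library lay below its DMSO partner in 3 of 3 letters for Bmp4, Bmpr1a, Id2, Id3 and Id4, and above it in 3 of 3 for Bmpr2. So 5 genes were lower within all letters and 1 was higher, where 20.3% of all genes tested were lower and 20.3% higher, and 6 of 10 genes had a single sign against 40.6% of all genes. The groups did not overlap for 1 of the 10 genes, Bmpr2, against 15.6% of all genes, 8.23% with MB-3 the higher and 7.37% with MB-3 the lower.

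**Figure D2:**
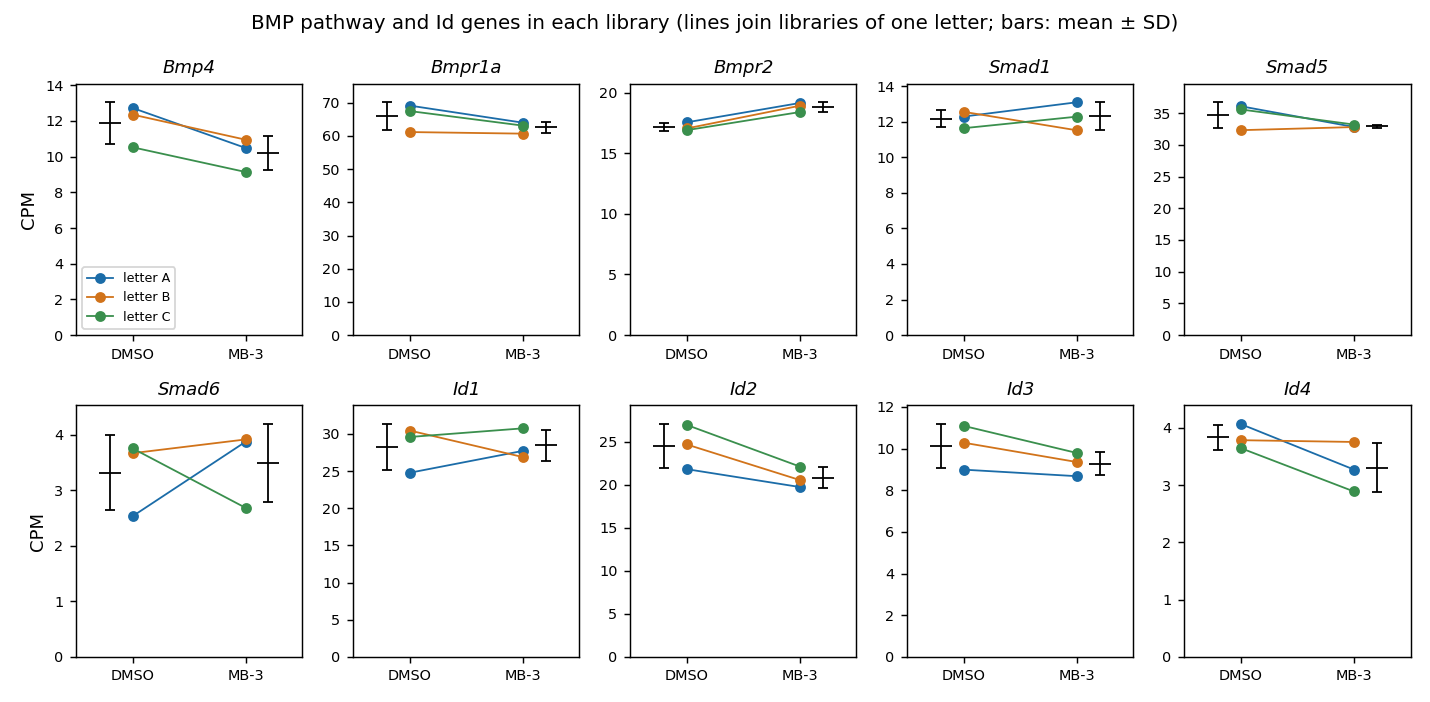
Level of each of the 10 genes in CPM in every library, with DMSO on the left and MB-3 on the right of each panel, a line joining the libraries of each letter, and black bars for mean ± SD (n = 3). Id2 was lower in MB-3 within each letter, while Bmpr2 was higher in every MB-3 library than in any DMSO library.

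Of the ligand and receptor genes, Bmpr2 was the only one of the 10 genes whose groups did not overlap. Bmp4 (ENSMUSG00000021835, GRCm38 chr14:46383520-46390669), the ligand made by ES cells themselves, was at 12.7, 12.4 and 10.5 CPM in DMSO libraries A, B and C and at 10.5, 10.9 and 9.14 CPM in MB-3. MB-3 library C was the lowest of the 6 and the groups overlapped only slightly, between MB-3 library B and DMSO library C. The log2 fold change was -0.22 (standard error 0.10, 95% interval -0.44 to -0.0022, adjusted p = 0.450). With the replicate letter as a block the adjusted p-value was 0.086. Bmp4 shares exonic bases with Gm15217 on the opposite strand, and the use of strand in the counting is not stated, so its counts may hold reads of both.

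Bmpr1a (ENSMUSG00000021796, chr14:34410734-34503341), the type I receptor chain, was at 69.2, 61.2 and 67.5 CPM in DMSO and 64.0, 60.7 and 63.1 CPM in MB-3. The 3 MB-3 libraries lay within the lower part of the DMSO range or just under it, for a log2 fold change of -0.075 (standard error 0.062, 95% interval -0.21 to 0.060, adjusted p = 0.699). It shares exonic bases with Gm17110 on the opposite strand. Bmpr2 (ENSMUSG00000067336, chr1:59763400-59879014), the type II chain, was at 17.5, 17.0 and 16.9 CPM in DMSO and 19.1, 18.9 and 18.4 CPM in MB-3. Every MB-3 library stood above every DMSO library, with a log2 fold change of 0.13 (standard error 0.069, 95% interval -0.015 to 0.28, adjusted p = 0.510). With the replicate block the interval was 0.0011 to 0.26 and the adjusted p-value 0.245. The type I and type II chains therefore had opposite signs, and neither passed the threshold in either test.

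H3K9ac peaks were also looked up for these genes. The peak lists are on mm9 and hold positions only, 1 list per treatment from merged duplicates, so no test between treatments was possible. In the part of the study's peak annotation used here, peaks were named for Bmpr1a and Bmpr2 only. No mm9 gene annotation was used, so peaks could not be assigned to most of the other genes. A gene without a named peak may still have a listed peak. At Bmpr2, the DMSO list held a peak of 480 bp at mm9 chr1:59819595-59820074 and another of 303 bp at chr1:59820384-59820686. The MB-3 list held 1 peak of 250 bp at chr1:59819779-59820028, which lay wholly within the first, and no peak overlapped the second. The whole lists held 11724 peaks in DMSO and 4673 in MB-3, so fewer peaks under MB-3 were not particular to Bmpr2. At Bmpr1a, an MB-3 peak of 265 bp at mm9 chr14:35316143-35316407 lay wholly within a DMSO peak of 566 bp at chr14:35316073-35316638. At both receptor genes the listed peak was thus narrower under MB-3, as was the median peak of the whole list, 416 bp against 528 bp in DMSO. The Bmpr2 transcript level was higher in the MB-3 libraries and that of Bmpr1a lower in mean, neither past the threshold.

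None of the Smad genes passed the threshold, and the sign of Smad1 and Smad6 depended on single libraries. Smad1 (ENSMUSG00000031681, chr8:79338395-79399518) was at 12.3, 12.6 and 11.6 CPM in DMSO and 13.1, 11.5 and 12.3 CPM in MB-3. The groups were interleaved, and the log2 fold change of 0.017 (standard error 0.083, 95% interval -0.16 to 0.20) was smaller than its standard error. Its sign was not stable, and turned to -0.014 without DMSO replicate C and to -0.031 without MB-3 replicate A. Smad5 (ENSMUSG00000021540, chr13:56703010-56742377), which acts beside Smad1, was at 36.1, 32.3 and 35.6 CPM in DMSO and 32.8, 32.8 and 33.2 CPM in MB-3. The MB-3 libraries were close to each other and to DMSO library B, the lowest of its group. The log2 fold change was -0.073 (standard error 0.065, 95% interval -0.21 to 0.067). Smad5 shares exonic bases with Gm27301 on the same strand. Smad6 (ENSMUSG00000036867, chr9:63953076-64022059), the inhibitor, was at 2.53, 3.67 and 3.75 CPM in DMSO and 3.88, 3.91 and 2.68 CPM in MB-3. In each group a single library stood low, A in DMSO and C in MB-3, and these rest on 122 and 115 counts. The log2 fold change of 0.076 had a standard error of 0.19, the largest of the 10 genes, and its sign turned without DMSO replicate A (-0.085) and without either of 2 MB-3 replicates, A (-0.0074) or B (-0.014). The adjusted p-values of Smad1, Smad5 and Smad6 were 0.959, 0.721 and 0.917.

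**Figure D3:**
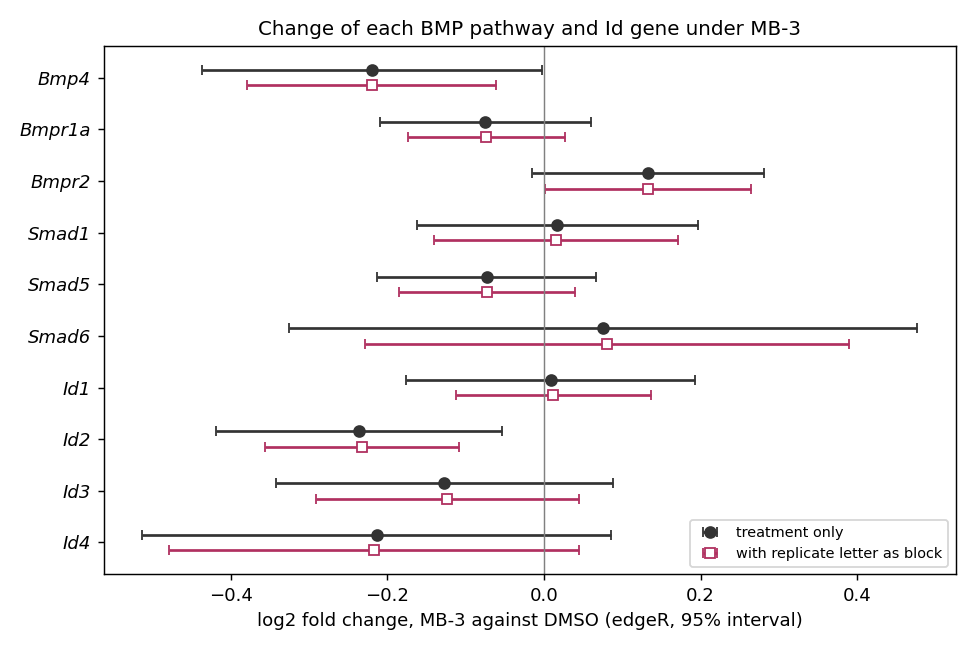
Log2 fold change of each of the 10 genes in MB-3 against DMSO with its 95% interval, from edgeR with treatment as the only term (filled circles) and with the replicate letter as a block (open squares). The intervals of Id2 and Bmp4 lay below 0 in both tests, and that of Smad6 was the widest.

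Of the Id genes, Id2 alone passed the threshold, and only in edgeR with the replicate block. Whether the Id genes differ from each other in their response was not tested, and the 95% interval of Id1 overlapped those of Id2, Id3 and Id4. Id1 (ENSMUSG00000042745, chr2:152736251-152737410) was at 24.8, 30.45 and 29.6 CPM in DMSO and 27.7, 26.9 and 30.7 CPM in MB-3. It was higher in MB-3 for letters A and C and lower for letter B. Its log2 fold change was 0.0086 (standard error 0.085, 95% interval -0.18 to 0.19, adjusted p = 0.980), and the sign turned without DMSO replicate A (-0.078) or without MB-3 replicate C (-0.050).

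Id2 (ENSMUSG00000020644, chr12:25093799-25097140) was at 21.8, 24.7 and 27.0 CPM in DMSO and 19.7, 20.6 and 22.1 CPM in MB-3. The groups overlapped between DMSO library A and MB-3 library C, but within each letter MB-3 was the lower, and in both groups letter C was the highest and letter A the lowest. The log2 fold change was -0.24 (standard error 0.085, 95% interval -0.42 to -0.053, adjusted p = 0.318). With the replicate letter as a block it was -0.23 (standard error 0.061, 95% interval -0.36 to -0.11) and passed the threshold (adjusted p = 0.015). The call rested on that edgeR fit and on the libraries in it. DESeq2 with the same block gave -0.23 (adjusted p = 0.134). The edgeR block gave -0.22 (adjusted p = 0.081) without both libraries of letter B and -0.21 (adjusted p = 0.108) without both libraries of letter C. Id2 stayed called without both libraries of letter A (-0.28, adjusted p = 0.024). The size of the change was thus similar where the call was lost.

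Id3 (ENSMUSG00000007872, chr4:136143497-136145755) was at 8.99, 10.3 and 11.1 CPM in DMSO and 8.68, 9.35 and 9.79 CPM in MB-3. Its libraries stood in the order of those of Id2 in each group, with letter C the highest and A the lowest, and MB-3 was the lower within each letter. The log2 fold change was -0.13 (standard error 0.10, 95% interval -0.34 to 0.088, adjusted p = 0.677). Id4 (ENSMUSG00000021379, chr13:48261228-48266026) was at 4.07, 3.79 and 3.65 CPM in DMSO and 3.27, 3.76 and 2.89 CPM in MB-3. The pair of letter B was nearly equal and letters A and C accounted for the lower mean, with a log2 fold change of -0.21 (standard error 0.14, 95% interval -0.51 to 0.086, adjusted p = 0.608). Id4 rests on 124 to 196 counts per library and shares exonic bases with A330033J07Rik and Gm49291 on the opposite strand.

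Relative to Id1 in the same library, Id2 stood at a CPM ratio of 0.881, 0.811 and 0.911 in DMSO and 0.712, 0.765 and 0.719 in MB-3, and these groups did not overlap. The ratio of Id3 to Id2 was 0.412, 0.416 and 0.411 in DMSO and 0.439, 0.455 and 0.443 in MB-3, again without overlap. The ratio of Id3 to Id1 was 0.363, 0.338 and 0.375 in DMSO and 0.313, 0.348 and 0.318 in MB-3, and the groups overlapped. These ratios were formed after the levels had been seen and carry no test, and with 3 libraries on each side the smallest two-sided p of an exact permutation test is 0.10. The groups did not overlap for 15.6% of single genes, and the share for ratios of other gene pairs was not computed. Among genes with a mean of at least 10 CPM, those whose profile over the 6 libraries lay nearest to that of Id2 were Agpat4, Rcn2 and Ctsb, at root-mean-square distances of 0.029, 0.031 and 0.037 on the log2 scale, where the spread of Id2 itself was 0.15. For Id3 they were Tmem70, Pef1 and Cox10, and for Id1 Pfn1, Mrpl55 and Gm20568, at distances of 0.022 to 0.027 against spreads of 0.12 for Id3 and 0.11 for Id1. None of these was a gene of the BMP lists. The candidates numbered 10163 for Id1 and Id2 and 10164 for Id3, of which the lists hold few, so this says little.

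The 250 bases before the RefSeq start on GRCm38.p6 are shown for Id2, Id3 and Bmpr2. Id2 was the gene called with the block, and the libraries of Id3 stood in the same order. Bmpr2 alone of the 10 genes had non-overlapping groups. Capitals mark GGCGCC, a GC-rich sequence of the kind that Smad1 and Smad5 bind in BMP-responsive promoters, which is its own reverse complement.
Id2 (chr12:25096093-25096342, minus strand): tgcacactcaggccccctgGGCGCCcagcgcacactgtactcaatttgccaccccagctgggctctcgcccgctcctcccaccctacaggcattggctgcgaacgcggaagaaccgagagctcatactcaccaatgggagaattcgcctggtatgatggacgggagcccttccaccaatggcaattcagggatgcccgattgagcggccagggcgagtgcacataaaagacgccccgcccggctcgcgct
Id3 (chr4:136143572-136143821, plus strand): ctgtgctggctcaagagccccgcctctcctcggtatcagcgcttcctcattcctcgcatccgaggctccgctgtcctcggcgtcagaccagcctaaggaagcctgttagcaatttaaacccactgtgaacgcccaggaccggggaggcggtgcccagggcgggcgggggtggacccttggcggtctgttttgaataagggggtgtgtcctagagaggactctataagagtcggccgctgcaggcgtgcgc
Bmpr2 (chr1:59764029-59764278, plus strand): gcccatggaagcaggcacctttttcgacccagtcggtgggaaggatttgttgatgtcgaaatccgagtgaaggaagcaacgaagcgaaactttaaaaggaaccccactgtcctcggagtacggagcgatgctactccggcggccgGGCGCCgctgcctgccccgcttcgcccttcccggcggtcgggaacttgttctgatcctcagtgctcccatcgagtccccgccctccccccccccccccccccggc
Id2 and Bmpr2, which had opposite signs, each held GGCGCC once in this window, and Id3 did not hold it. Of the 9 genes with a window in the table used, 5 held it, Bmpr1a, Bmpr2, Smad5, Id2 and Id4, each in 1 window. The 9 genes had 11 windows, of which 5 thus held it. Over 32851 windows of the same length the share was 9.59%, and their median GC content was 52.4%, while the windows of the 9 genes had between 60.0% and 78.8% GC. A match is a description of the sequence and not of binding.

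The other genes of the pathway were taken from lists by role, 72 genes of which 55 passed the filter on low counts. With treatment alone in the test, 0 of the 55 were called, beside 0.205% of all genes. An unadjusted p-value under 0.05 was found for 7 of the 55, near the 10.9% of all genes, and DESeq2 called 1, Skil, beside 1.04% of all genes it tested. The edgeR block called 4, with Skil higher in MB-3 and Bmp2, Nog and Fst lower, beside 3.22% of all genes called higher and 3.9% called lower. The median log2 fold change of the 55 genes was -0.079.

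**Figure D4:**
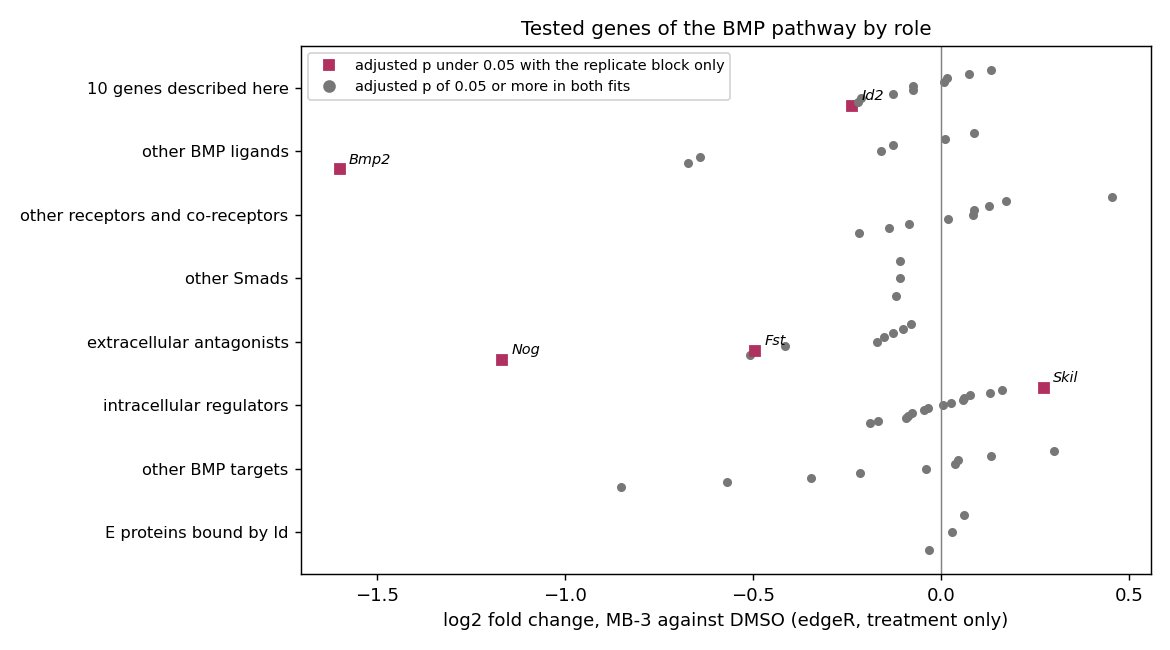
Log2 fold change in MB-3 against DMSO (edgeR, treatment only) of every tested gene of the BMP lists, grouped by role. Squares with names mark the 5 genes that passed the threshold of 0.05 in the edgeR block test and not with treatment as the only term, and the other points passed it in neither of these tests.

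Among other ligand genes, 7 of 14 were tested, 5 of them lower and 2 higher by sign. Gdf3, a ligand related to Nodal, was the most abundant per length, at 44.5 RPKM in DMSO and 44.9 RPKM in MB-3. Bmp2, which uses the same receptors as Bmp4, was very low, with 24, 17 and 41 counts in DMSO and 6, 1 and 18 counts in MB-3. Its levels were 0.498, 0.339 and 0.860 CPM against 0.120, 0.0228 and 0.420 CPM. Each MB-3 library lay below its partner, but the groups overlapped between DMSO library B and MB-3 library C. The log2 fold change of -1.60 (standard error 0.59) had an adjusted p-value of 0.336, and 0.0089 with the replicate block. The call with the block was lost without both libraries of letter B (-1.40, adjusted p = 0.077). It stayed without both libraries of letter A (-1.55, adjusted p = 0.034) or of letter C (-2.50, adjusted p = 0.0041). DESeq2 gave no adjusted p-value for Bmp2 with or without the block. With treatment alone the value ran from -1.10 without MB-3 replicate B to -2.88 without MB-3 replicate C.

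Of the other receptor and co-receptor genes, all 9 were tested and 0 were called in either test, with 6 higher and 3 lower by sign and a range from -0.22 to 0.46 on the log2 scale. Neo1, a co-receptor chain and the most abundant of them per length, had 71.0 ± 5.86 CPM under DMSO and 71.8 ± 3.76 CPM under MB-3. Like Bmpr2, Acvr2b had groups that did not overlap, where 15.6% of all genes did so. It was at 9.01, 8.01 and 9.39 CPM in DMSO and 10.5, 9.51 and 9.81 CPM in MB-3. Its log2 fold change was 0.17 (adjusted p = 0.524). Smad4, the common partner of Smad1 and Smad5, was at 66.0 ± 3.36 CPM in DMSO and at 61.3 ± 3.30 CPM in MB-3, which differed by -0.11 in log2 units (SE 0.063, adjusted p = 0.566). With Smad7 and Smad9, 3 of 3 other Smad genes were lower by sign and 0 were called.

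Of 17 genes for extracellular antagonists, which bind BMP or related ligands outside the cell, 9 were tested. All 9 were lower by sign, where 10073 of all 20027 genes tested were lower. Twsg1 was the most abundant of the antagonist genes per length, at 45.2 ± 2.36 and 42.1 ± 1.03 CPM in DMSO and MB-3 (SD, n = 3). Nog, which encodes the BMP antagonist noggin, was at 1.54, 0.917 and 2.45 CPM in DMSO and 0.783, 0.319 and 1.07 CPM in MB-3. The letters kept their order in both groups, with C the highest and B the lowest, and MB-3 was the lower of each pair although the groups overlapped. MB-3 and DMSO differed by -1.17 in log2 units (SE 0.39, adjusted p = 0.283). With the replicate block it was -1.18 (standard error 0.22, adjusted p = 6.7e-04), and DESeq2 with the block gave an adjusted p-value of 0.028. With treatment alone, leaving out DMSO replicate B gave -1.46 (adjusted p = 0.028), leaving out DMSO replicate C gave -0.75 (adjusted p = 0.741), and the other 4 libraries left out in turn gave no call (adjusted p from 0.185 to 0.657). With the edgeR block, Nog stayed called without both libraries of letter A, B or C (adjusted p of 8.7e-04, 0.013 and 0.0060). Fst, which encodes follistatin, was at 5.54, 4.78 and 9.31 CPM in DMSO and 4.44, 4.19 and 5.31 CPM in MB-3, with the same order of letters. Its log2 fold change of -0.49 (standard error 0.21) had an adjusted p-value of 0.394, and ran from -0.15 without DMSO replicate C (adjusted p = 0.862) to -0.68 without DMSO replicate B (adjusted p = 0.054). The replicate block gave -0.46 (adjusted p = 0.010), but -0.26 (adjusted p = 0.319) without both libraries of letter C. Fst stayed called without both libraries of letter A (-0.53, adjusted p = 0.0055) or of letter B (-0.58, adjusted p = 0.013). DESeq2 with the block gave an adjusted p-value of 0.172. Fst shares exonic bases with Gm47040 on the opposite strand.

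The libraries highest in Nog, Bmp2 and Fst were also those highest in the sums for primitive streak, simple epithelium, primitive endoderm and neuroectoderm genes. T, which encodes brachyury, was at 16.5, 9.05 and 32.4 CPM in DMSO and 4.68, 3.57 and 7.44 CPM in MB-3. Of 6 primitive streak genes, 5 were tested, 0 were called with treatment as the only term, and 4, T, Mixl1, Fgf8 and Eomes, were called lower with the replicate block. The part of cells of the primitive streak, simple epithelium, primitive endoderm or neuroectoderm in the levels of Nog, Bmp2 and Fst was not tested. In the neuroectoderm list, Pax6 was called higher (log2 fold change 0.39) and Nes lower (-0.68) with the block, and with treatment alone neither was. In the other marker lists the block called Tfcp2l1 of the ES cell list lower, Tfap2c of the trophectoderm list higher, Col1a1 and Col1a2 of the fibroblast list lower, Krt8, Krt18 and Krt19 of the epithelial list lower, and no primitive endoderm gene, and with treatment alone no marker was called.

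Of 15 intracellular regulators of the pathway, all were tested, 8 of them higher and 7 lower by sign. Skil, which encodes the Smad co-repressor SnoN, was at 108, 114 and 100.3 CPM in DMSO and 135, 127 and 129 CPM in MB-3. Every MB-3 library stood above every DMSO library, as for 8.23% of all genes tested. In the same list the groups also did not overlap for Ppm1a (log2 fold change 0.028), Ctdsp1 (-0.17) and Ctdsp2 (-0.089). The log2 fold change of Skil was 0.27 (standard error 0.060, 95% interval 0.14 to 0.40) with an adjusted p-value of 0.098. It was called with the replicate block (adjusted p = 1.8e-04), by DESeq2 with treatment only (adjusted p = 0.0064) and with the block (adjusted p = 1.1e-04), and in edgeR without a filter on low counts (adjusted p = 0.047) or without DMSO replicate B (adjusted p = 0.012). These were 5 of 14 alternatives, and in the others, which include limma-voom, the other scalings and the other 5 single libraries left out, it was not called (adjusted p from 0.096 to 0.468). With the edgeR block, Skil was also called without both libraries of letter A, B or C (adjusted p of 0.0018, 5.2e-04 and 8.1e-04). Its relative Ski was at 97.9, 100.4 and 88.6 CPM in DMSO and 105, 96.6 and 100.6 CPM in MB-3, higher by 0.077 in log2 units on average without passing the threshold (adjusted p = 0.690). Fkbp1a, which holds type I receptors inactive and was the most abundant of the list per length, had 158 ± 13.0 CPM under DMSO and 158 ± 13.3 CPM under MB-3.

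Among 11 other target genes of BMP, 9 were tested and 0 were called in either test, 4 of them higher and 5 lower by sign. Dusp9, an ERK phosphatase gene and the most abundant of these per length, had 45.4 ± 2.82 CPM under DMSO and 49.9 ± 2.29 CPM under MB-3, higher by 0.13 in log2 units (SE 0.066, adjusted p = 0.483). Of the E protein genes that Id proteins act on, Tcf3 was the most abundant, at 104 ± 2.38 and 108 ± 5.24 CPM, and none of the 3 was called in either test.

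**Figure D5:**
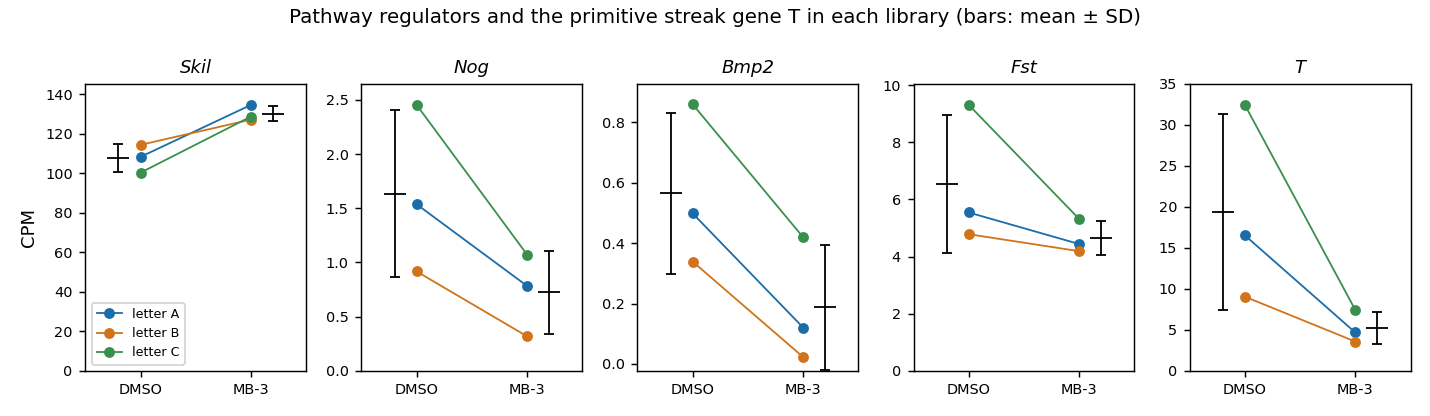
Levels of Skil, Nog, Bmp2, Fst and the primitive streak gene T in CPM in every library, with a line joining the libraries of each letter and black bars for mean ± SD (n = 3). Skil was higher in every MB-3 library, and Nog, Bmp2, Fst and T were lower within each letter, with letter C the highest in both groups.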

How the data were processed

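The authors sequenced polyA RNA as single-end reads, mapped them after trimming to mm10 (Bowtie), and deposited whole-number counts of exonic reads for each Ensembl gene, made with GenomicAlignments. Versions, annotation release and use of strand are not given in the sources used here. For H3K9ac, reads of duplicates were mapped to mm9 (BWA) and pooled, MACS2 found peaks over input, and the deposited lists give peak positions alone.

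Columns were mapped to samples by the names in the labels, and 0 columns went unused. Of 30677 identifiers, 30540 matched a symbol in GENCODE M21 (GRCm38), which gave coordinates, exon lengths and overlaps. In edgeR 4.0.16 (R 4.3.3), filterByExpr kept 20027 genes, TMM scaled the libraries, and glmQLFTest tested the treatment, alone in the model. Benjamini-Hochberg adjustment covered all genes tested, and the threshold was 0.05. Adjusted p-values are from this test unless another is named. Intervals are 95%. At 1 CPM, a level rests on 42.9 to 50.2 reads, and log2 fold changes had a median standard error of 0.10. Within each group no pair of libraries was a duplicate (chi-square over genes at least 8.39 per gene).

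The labels do not say what the letters A, B and C share. Over 20027 genes, deviations from the group means in log2(CPM + 0.1) correlated at 0.115, 0.287 and 0.232 for same-letter libraries and below 0 for all others. Deviations within a group sum to 0 for each gene. Values below 0 for the other pairs thus follow on balance from those above 0 and add no separate support. The letters were taken as pairs from the same-letter values, from the data and not the design, and a test with the replicate letter as a block was run beside the main one. The fits were tested on simulated data.

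Alternatives were RLE and upper quartile scaling, other filters on low counts, DESeq2 1.42.0, limma-voom (limma 3.58.1), the block, other lengths and scaling for levels, a stricter peak overlap, and each library left out. Both libraries of a letter were also left out, an alternative chosen after seeing the data. The 10 genes and the lists were chosen with earlier results of these data known. The text names all 10 genes, listed pathway genes called in the main test, up to 8 called with the block, the most abundant of each list, and the 3 nearest profiles to Id1, Id2 and Id3. Acvr2b, Ski, Smad7, Smad9, Ppm1a, Ctdsp1, Ctdsp2 and marker genes other than the most abundant of each list fall outside that rule and were named after their values were seen. Promoter windows are from RefSeq (GRCm38.p6), searched for GGCGCC. Python 3.11.15 with pandas 2.3.3 was used for tables and matplotlib 3.10.9 for plots.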

Additional observations from a re-analysis of the deposited data

How the results depend on the processing

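The number of genes called over the whole table, 41 with treatment as the only term, was 1425 with the replicate letter as a block in edgeR, 591 with the replicate block in DESeq2, 183 in DESeq2 with treatment only, 194 without a filter on low counts, 24 with at least 1 CPM in 3 libraries, 25 with upper quartile scaling and 18 in limma-voom. It ran from 0 (without MB-3 replicate A or B, where 1440 and 1716 genes had p under 0.05 before adjustment) to 520 (without DMSO replicate B) as single libraries were left out. With the block it was 939, 912 and 1037 without both libraries of letter A, B or C. Of the 10 genes, 0 were called in edgeR with treatment only and under every alternative except the edgeR block (1, Id2) and the edgeR block without letter A (1). Leaving out a single library gave 0 calls among them each time. Of the 55 other pathway genes, 0 were called in edgeR with treatment only, 4 with the edgeR block, 2 with the DESeq2 block, 1 in DESeq2 with treatment only and 1 without a filter. Leaving out single libraries gave between 0 and 2. The edgeR block gave 5, 4 and 3 without letter A, B or C. The causes of these differences were not tested.

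Bmp4, Bmpr1a, Bmpr2, Smad5, Id2, Id3 and Id4 kept their sign under the 14 alternatives other than those that left out both libraries of a letter, and stayed over the threshold in them, apart from Id2 with the edgeR block. On the log2 scale they ranged from -0.30 to -0.15 (Bmp4), -0.13 to -0.040 (Bmpr1a), 0.12 to 0.15 (Bmpr2), -0.12 to -0.044 (Smad5), -0.31 to -0.16 (Id2), -0.21 to -0.057 (Id3) and -0.31 to -0.13 (Id4), with both ends from single libraries left out. The sign turned for Smad1, Smad6 and Id1 when single libraries were left out, with values from -0.031 to 0.060 for Smad1, -0.085 to 0.23 for Smad6 and -0.078 to 0.065 for Id1. It also turned with the block without letter A (-0.025 for Smad1, -0.18 for Smad6, -0.063 for Id1) and without letter C (-0.015 for Smad1, -0.010 for Id1). For Smad6 the block without letter C gave 0.34, above the range from single libraries left out. Scaling by library size alone left all 20 mean levels in CPM within 1 SD, while the longest transcript as the length moved 12 of 20 mean levels in RPKM by more. The MB-3 peaks at Bmpr1a and Bmpr2 lay on DMSO peaks under either overlap rule. The paper reports overlap for nearly all peaks of the MB-3 list, so this did not set these genes apart. Id4, Smad6, Nog and Bmp2 rest on few counts, and the part of depth in their errors was not tested.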
